A study of Ovis aries with 6 samples.

Results

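The fibroblast growth factor (FGF) ligand and receptor genes were followed in ovary RNA of Hu and Mongolian sheep. The genes were chosen by symbol from the deposited gene table: FGF1, FGFR1 and FGFR2, together with FGF2, FGF7, FGF10, FGFR3, FGFR4 and FGFRL1 where present. Of these 9 symbols, 7 were listed among the 14480 rows, each in a single row. A symbol is given for 10189 of the rows. FGFR3 and FGFRL1 were not found by symbol and are not analysed here. The files pair FGF1 with ENSOARG00000001851, FGFR1 with ENSOARG00000001576, FGFR2 with ENSOARG00000005375, FGF2 with ENSOARG00000017222, FGF7 with ENSOARG00000021001, FGF10 with ENSOARG00000008545 and FGFR4 with ENSOARG00000003522. The samples were 3 Hu and 3 Mongolian sheep ovaries (Ovis aries), all taken during estrus and sequenced as polyadenylated RNA. Hu ewes are prolific, whereas Mongolian ewes mostly carry singletons. The labels give no age, treatment, follicle stage or time within estrus, and nothing in them ties a replicate to its own animal, so the p-values measure only the spread between these libraries. The study's title speaks of exosomes, whereas every sample label gives ovary as the source.

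FGFs are secreted proteins that bind receptor tyrosine kinases on the cell surface, with heparan sulfate chains holding ligand and receptor together. The activated receptor phosphorylates the docking protein FRS2, which recruits GRB2, SOS and GAB1 and starts the RAS, RAF and MAP kinase cascade and the PI3 kinase branch. FGF1 binds all of the signalling FGF receptors, whereas FGF7 and FGF10 are made by mesenchymal cells and act mainly on the epithelial splice form of FGFR2. In mammalian ovaries FGF signalling is known from the growth of follicles, the survival of granulosa cells and the growth of blood vessels in theca and corpus luteum.

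Levels are in FPKM, a fragment count corrected for gene length and sequencing depth, and the values of a breed run through replicates 1, 2 and 3. The libraries differed in how much they listed: 6500, 7971 and 13342 genes were above 0 in Hu ovaries, against 10547, 11463 and 10606 in Mongolian ovaries. Genes that nearly all cells use were among those missing. MAP2K1, a kinase of the MAP kinase cascade, was for example listed at 0 in Hu 2, whereas the remaining libraries ranged from 1.49 to 6.19 FPKM. Zeros are for this reason reported as listed at 0, and genes that have them get no mean ± SD of their level. In comparisons between genes they are entered as 0. Because FPKM hold no read numbers, the depth behind each value is unknown. In Hu 3 the 2 genes of highest mean FPKM held 53.3% of the summed FPKM, against 74.2% to 79.7% in the other libraries. The remaining genes therefore shared a larger part of the sum in Hu 3, which limits statements that a gene was highest there. Markers of stroma, smooth muscle and granulosa cells were present in all 6 libraries, while the oocyte genes GDF9 and ZP3 were listed at 0 in 5 and 4 libraries and at 0.502 FPKM at most. In such whole-tissue RNA, fewer cells of a type and less RNA per cell cannot be told apart.

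FGF1, the ligand with the broadest receptor range, was the most abundant of the listed ligands by mean FPKM, though FGF2 was slightly higher in Mongolian 2 and Mongolian 3. It stood at 21.2, 8.31 and 26.3 FPKM in Hu ovaries, against 12.4, 7.21 and 1.47 FPKM in Mongolian ovaries. The breeds overlapped, because Hu 2 lay below Mongolian 1. In the deposited FPKM Mongolian 3 was the lowest library and Hu 3 the highest, 17.8 times apart. Under each of the 3 other scalings described below, Hu 1 was the highest. FGF1 averaged 18.6 ± 9.26 FPKM in Hu and 7.04 ± 5.48 FPKM in Mongolian (SD, n = 3 each), a ratio of means of 2.64. On the log2(FPKM + 1) scale, which understates changes of low genes, the difference was 1.46 with a standard error of 0.71 and a 95% confidence interval from -0.04 to 2.96 (limma adjusted p = 0.998 over the 9971 genes tested, unadjusted p = 0.056). The difference was therefore not distinguishable from the spread between libraries.

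FGF2, a ligand of endothelial and granulosa cells, followed the libraries more than the breeds. It stood at 1.21, 2.87 and 10.5 FPKM in Hu ovaries, against 2.62, 7.25 and 1.59 FPKM in Mongolian ovaries. Both the highest and the lowest value were in Hu libraries. The log2 difference was 0.12 with a 95% confidence interval from -1.59 to 1.82 (limma adjusted p = 0.998), and its sign depended on which library was left out.

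The mesenchymal ligands were each listed at 0 in some libraries. FGF10 was listed at 0, 3.96 and 0.974 FPKM in Hu ovaries, against 0.995, 0.775 and 0 FPKM in Mongolian ovaries, so its highest value was in Hu 2 and each breed had a library at 0. Its log2 difference was 0.49, with a 95% confidence interval from -0.93 to 1.91 (limma adjusted p = 0.998). FGF7 reached 2.98 FPKM in Hu 3 and 0.0851 FPKM in Mongolian 2 and was listed at 0 in the other 4 libraries. It did not meet the minimum for testing, which was 0.5 FPKM in at least 3 libraries.

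FGFR1, the receptor most associated with mesenchymal tissue, was the most abundant of the listed receptors, and its values were lower in the Hu libraries. It stood at 2.47, 3.92 and 8.85 FPKM in Hu ovaries, against 11.4, 9.65 and 9.28 FPKM in Mongolian ovaries. Every Hu value lay below every Mongolian value, with Hu 3 close under the lowest Mongolian library in the deposited FPKM. Over all genes tested, 6.05% had all Hu values below all Mongolian values, and 1.88% had all Hu values above. FGFR1 averaged 5.08 ± 3.34 FPKM in Hu and 10.1 ± 1.12 FPKM in Mongolian (SD, n = 3 each). The log2 difference was -1.004 with a standard error of 0.63 and a 95% confidence interval from -2.34 to 0.34 (limma adjusted p = 0.998, unadjusted p = 0.131). As for FGF1, it was not distinguishable from the spread between libraries. The median over all genes tested was also negative, at -0.28, and FGFR1 lay 0.73 below it.

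FGFR2, the receptor whose epithelial form answers to FGF7 and FGF10, was near the floor of the table. It stood at 0.764, 0.394 and 1.21 FPKM in Hu ovaries, against 0.207, 0.623 and 0 FPKM in Mongolian ovaries, with Hu 2 below Mongolian 2. Its log2 difference was 0.49 with a standard error of 0.49 and a 95% confidence interval from -0.55 to 1.53 (limma adjusted p = 0.998). FGFR4 was listed in Hu 3 alone, at 0.271 FPKM, and was not tested.

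**Figure D1:**
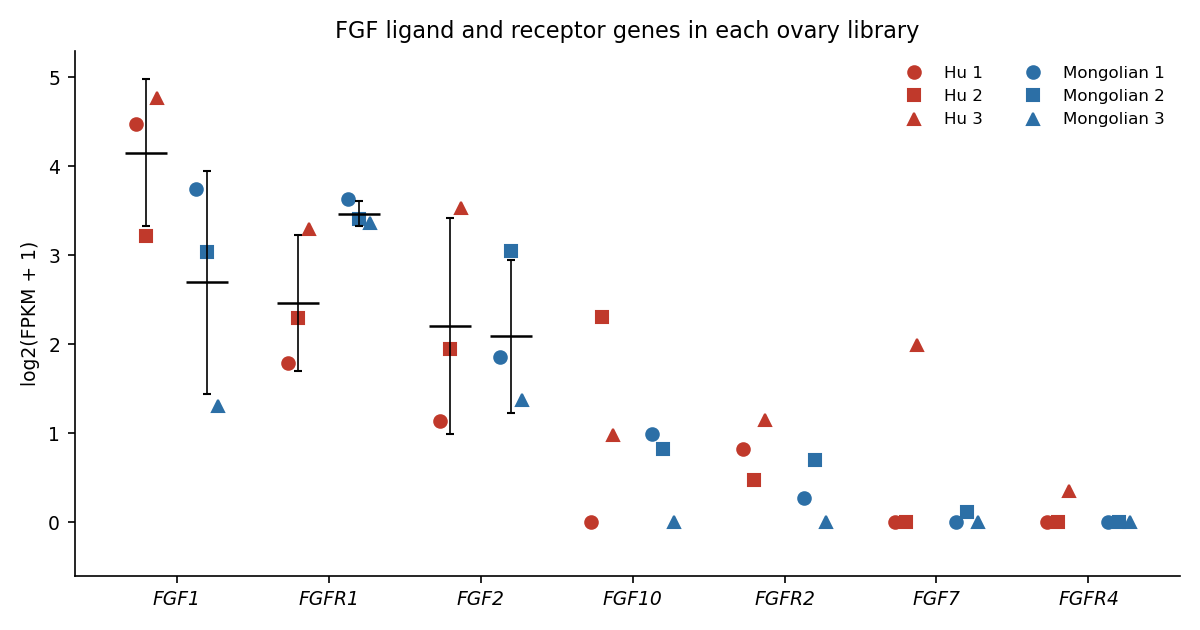
Levels of the 7 listed genes as log2(FPKM + 1), Hu (red) left of Mongolian (blue), with 1 point per library and, for genes above 0 in all 6 libraries, the mean as a bar and the SD as a whisker. FGFR1 is the gene whose breeds do not overlap, with Hu at 2.47 to 8.85 FPKM and Mongolian at 9.28 to 11.4 FPKM, and FGF1 spreads widely within both breeds.

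Of the 9971 genes tested, 0 passed the limma adjusted threshold of 0.05, a background of 0%, and the 5 tested FGF and receptor genes were likewise not called. At an unadjusted p under 0.05 there were 372 genes, of which 91 were higher in Hu (0.913% of those tested) and 281 lower (2.82%). None of the 5 was among them. Weighting the libraries by estimated quality gave 633 calls (6.35%), and these did not include FGF1, FGFR1, FGFR2, FGF2 or FGF10 (FGFR1 log2 difference -1.19, limma adjusted p = 0.0853). Over all alternatives the adjusted p of FGFR1 ran from 0.0853 to 1.000.

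Pairs of genes were compared within each library, as differences of log2(FPKM + 1). By mean FPKM over the 6 libraries, with values listed at 0 entered as 0, the order was FGF1, FGFR1, FGF2, FGF10, FGFR2, FGF7 and FGFR4. FGF1 was above 86.5% of the genes tested by mean level, FGFR1 above 76.2% and FGF2 above 59.6%. FGF1 exceeded FGFR2 in 6 of 6 libraries, by 2.86 ± 0.93 log2 units (SD), and FGFR1 exceeded FGFR2 in 6 of 6, by 2.40 ± 0.93. FGF1 exceeded FGF2 in 4 of 6 libraries, by 1.28 ± 1.27 log2 units (SD; two-sided exact sign-flip permutation test, p = 0.125). Of the 21 pairs of genes, 10 reached the smallest p that 6 libraries allow (two-sided exact sign-flip permutation test, p = 0.0313, adjusted p = 0.0656 over the 21 pairs), so 0 passed after adjustment.

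No neighbouring pair in that order passed the test. FGF1 lay above FGFR1 in 4 of 6 libraries, with a mean difference of 0.46 ± 1.63 log2 units (SD; exact permutation test, p = 0.5). FGFR1 lay above FGF2 in 5 of 6 libraries, by 0.82 ± 0.88 (exact permutation test, p = 0.0625), and FGF2 above FGF10 in 5 of 6, by 1.30 ± 1.04 (exact permutation test, p = 0.0625). FGF10 was above FGFR2 in 3 of 6 libraries, FGFR2 above FGF7 in 4 of 6 and FGF7 above FGFR4 in 2 of 6, with mean differences of 0.28 ± 0.91, 0.22 ± 0.59 and 0.29 ± 0.66 log2 units (SD). FGF7 and FGFR4 were tied, both listed at 0, in Hu 1, Hu 2, Mongolian 1 and Mongolian 3. FGF10 and FGFR2 were tied at 0 in Mongolian 3.

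Which gene led differed among the libraries. FGF1 was the highest of the 7 in 3 of 3 Hu libraries and in 1 Mongolian library, and FGFR1 was the highest in the other 2 Mongolian libraries. FGF1 made up 82.7%, 42.7% and 51.4% of the summed FPKM of the 7 genes in Hu, and 45.0%, 28.2% and 11.9% in Mongolian. FGFR1 made up 9.61%, 20.2% and 17.3% in Hu, and 41.2%, 37.7% and 75.2% in Mongolian, with no overlap between breeds. Such separation was common, because the ratio of another tested gene to FGFR1 was higher in Hu without overlap for 21% of 9970. A background for the share itself was not counted. Among all rows of the table, FGFR1 ranked 3643rd, 3622nd and 3302nd from the top in Hu and 1603rd, 1755th and 2340th in Mongolian. FGF1 ranked 556th, 1790th and 1075th in Hu and 1418th, 2399th and 8060th in Mongolian.

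**Figure D2:**
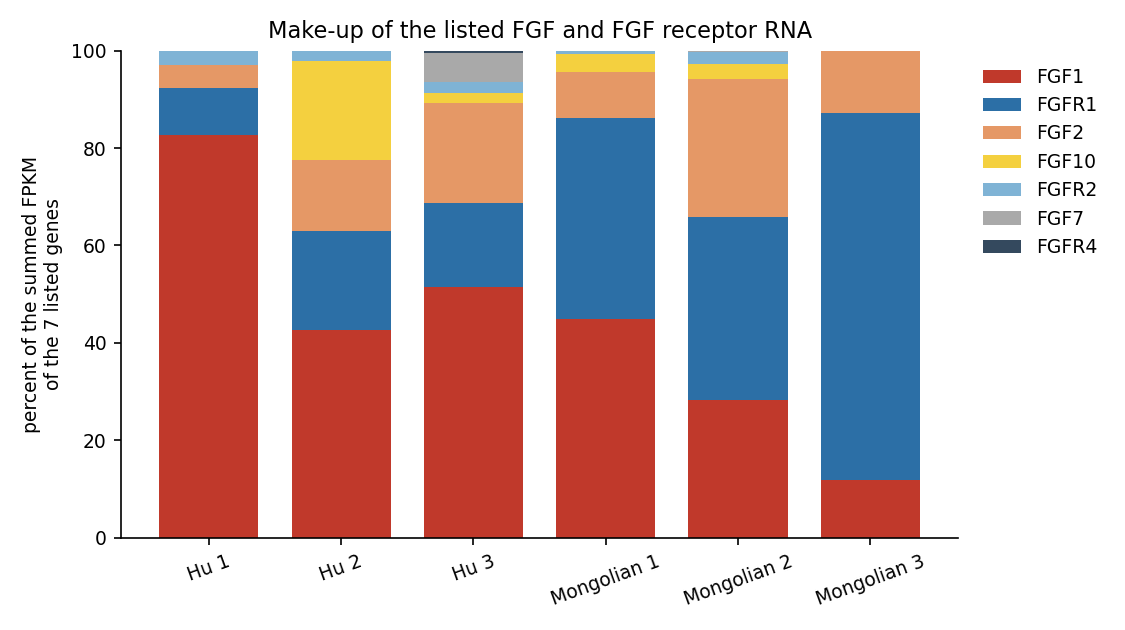
Share of each gene in the summed FPKM of the 7 listed FGF and receptor genes, 1 bar per library, Hu libraries left of Mongolian libraries. FGFR1 takes 9.61% to 20.2% of each Hu bar and 37.7% to 75.2% of each Mongolian bar. For comparison, the ratio of another tested gene to FGFR1 was higher in Hu without overlap for 21% of 9970.

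Ratios within a library were then compared. FGFR1 made up 76.4%, 90.9% and 88.0% of the summed FGFR1 and FGFR2 level in Hu, and 98.2%, 93.9% and 100% in Mongolian, where FGFR2 was listed at 0 in replicate 3. All 3 Hu values lay below all 3 Mongolian values, a mean difference of -12.3 percentage points (two-sided exact permutation test, p = 0.1, which is the smallest that 3 against 3 libraries allow). The design could therefore not take this difference past 0.05. Separation in this direction was also common, because the ratio of another tested gene to FGFR1 was higher in Hu without overlap for 21% of 9970.

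The ratio of FGF1 to FGFR1 was chosen after its values were seen and is given without a test. It was 8.61, 2.12 and 2.97 in Hu, and 1.09, 0.748 and 0.159 in Mongolian. All Hu ratios lay above all Mongolian ratios, and Mongolian 1 was the one Mongolian library with more FGF1 than FGFR1. On the log2 scale the mean ratio was 1.92 ± 1.06 (SD) over the 3 Hu libraries, against -0.98 ± 1.48 over the 3 Mongolian ones. Such separation was common among other genes. The ratio of FGF1 to another gene had all Hu values above all Mongolian values for 29.1% of the 4968 tested genes listed in every library, and the ratio of another gene to FGFR1 did so for 21% of 9970.

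**Figure D3:**
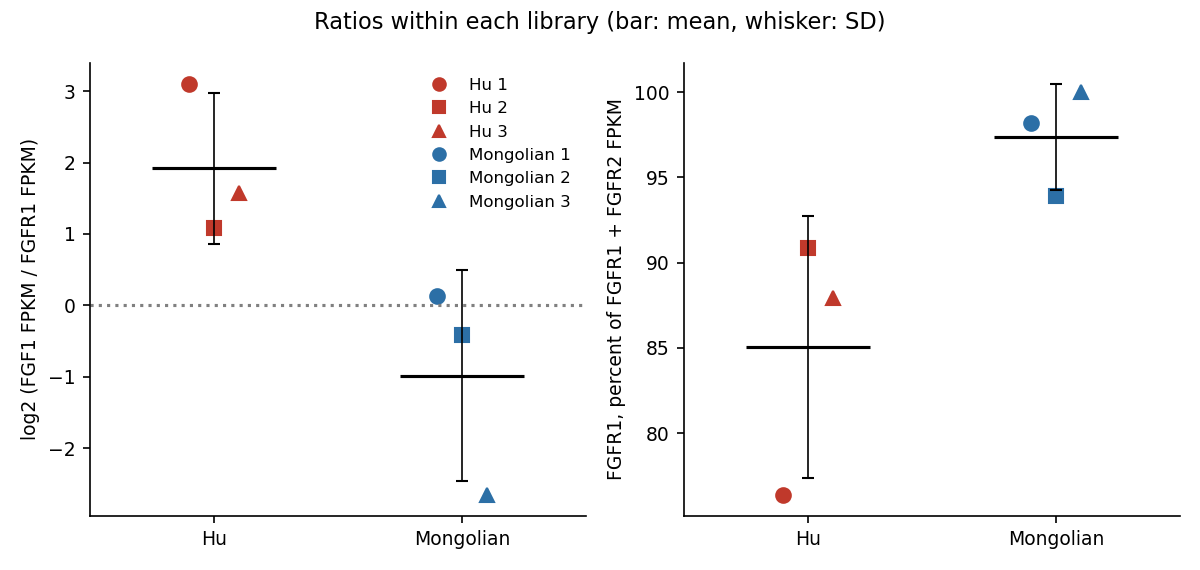
Left, log2 of the FGF1 to FGFR1 ratio; right, FGFR1 as a percent of the summed FGFR1 and FGFR2 FPKM, with 1 point per library, Hu left of Mongolian, the mean as a bar and the SD as a whisker. Neither measure overlaps between breeds, with FGFR1 at 76.4% to 90.9% in Hu and 93.9% to 100% in Mongolian. The ratio of another tested gene to FGFR1 was higher in Hu without overlap for 21% of 9970.

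The order of the breeds for FGFR1 was the same under each of the 4 scalings tried, though it was called under none. All Hu values of FGFR1 lay below all Mongolian values in the deposited FPKM and with median-of-ratios, quantile and common-sum scaling. The common sum was taken without the 2 genes of highest mean FPKM. The share of all genes that did so was counted for the deposited FPKM alone, at 6.05%. For the other scalings no such share is at hand, and they reuse the same libraries, so they are no separate support. The log2 difference was -0.89, -0.83 and -1.08 under the 3 added scalings, where the median of all genes was -0.23, 0.02 and -0.37. FGFR1 in Hu 3 was then 5.68, 5.37 and 5.40, against a lowest Mongolian value of 7.98, 7.78 and 9.71. FGF1 differed by 1.59, 1.56 and 1.43 under these scalings (limma adjusted p of 0.775, 0.854 and 0.670), and its breeds overlapped. Its highest library was then Hu 1, at 32.8, 28.4 and 30.0, with Hu 3 at 16.9, 15.9 and 16.0. FGFR2 overlapped under all but quantile normalization, where it was higher in Hu by 0.85 log2 units (limma adjusted p = 0.854). That scaling raises values at the floor of Hu 1. FGF10, listed at 0 there, became 0.722, which is above every Mongolian FGFR2 value under the same scaling (0.344 at most). The separation of FGFR2 can therefore not be read apart from the scaling. All 3 Hu libraries lay outside the Mongolian range in the number of genes listed, so the fits were repeated without each of them and without Hu 1 and Hu 3 together. FGFR1 differed by -0.67 without Hu 1, -0.92 without Hu 2, -1.42 without Hu 3 and -1.17 without Hu 1 and Hu 3. FGF1 differed by 1.30 without Hu 1, 1.93 without Hu 2, 1.15 without Hu 3 and 0.52 without Hu 1 and Hu 3, and by 0.76 without Mongolian 3, its lowest library. FGFR2 differed by 0.49, 0.66 and 0.33 without Hu 1, Hu 2 and Hu 3, and by 0.16 without Hu 1 and Hu 3.

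**Figure D4:**
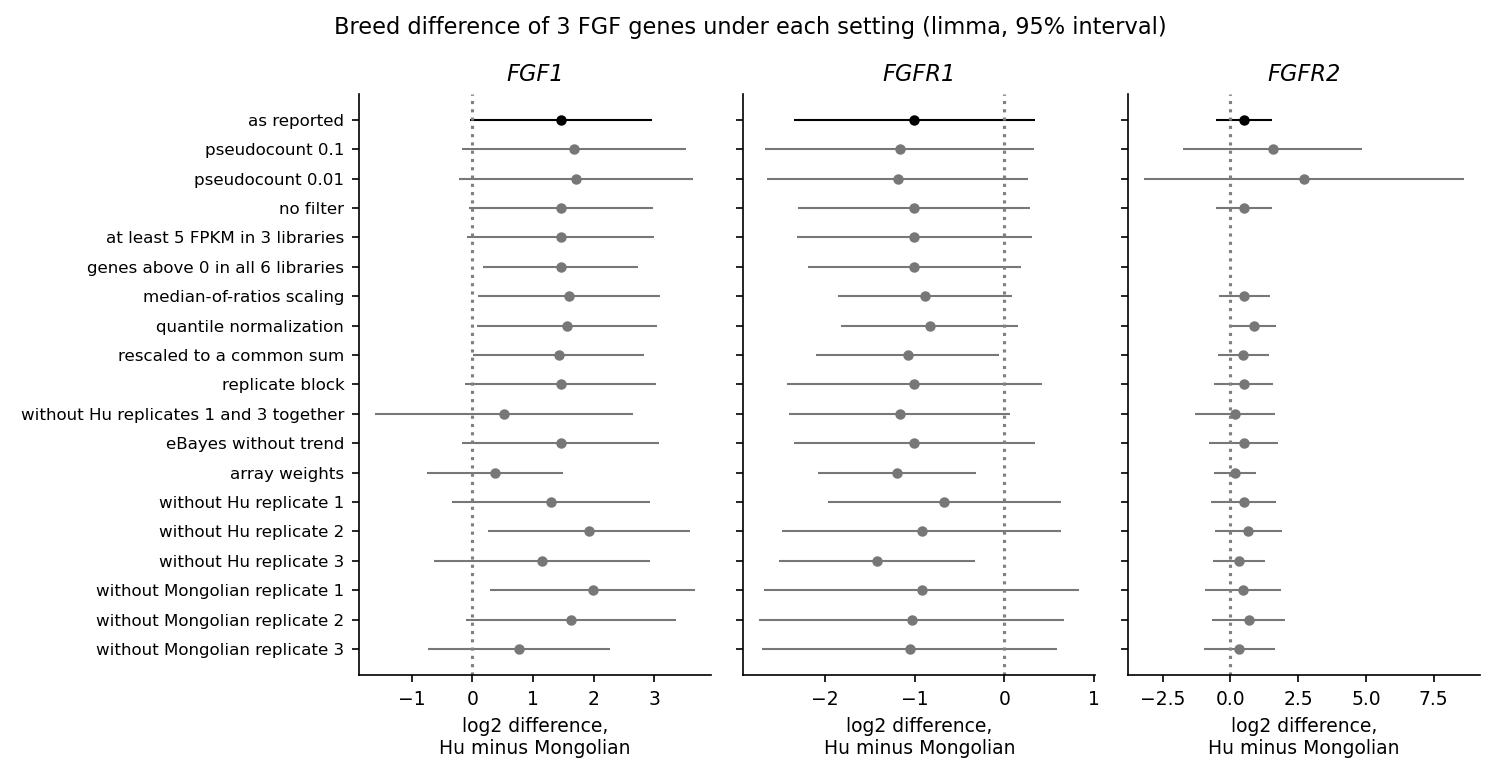
Difference between breeds in log2 units, Hu minus Mongolian, for FGF1, FGFR1 and FGFR2 under the reported fit (black) and each alternative (grey), with 95% confidence intervals from limma; gaps are settings whose filter removed the gene. FGFR1 lies between -1.42 and -0.67 and FGF1 between 0.37 and 1.98.

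The other genes of the pathway were taken from lists by role, described by counts beside those of all genes tested. Over all genes, 32.3% had a positive difference, with a median of -0.28. The positive share was 51.3% after quantile normalization, 50.8% without Hu 1 and 18.1% without Hu 3. Of the 72 tested genes in these lists, FGF1, FGF2, FGF10 and the receptors included, 0 were called (lowest limma adjusted p 0.998). With array weights 4 were, DUSP4 higher and EGR1, FOS and MAP2K1 lower in Hu (limma adjusted p of 0.0126, 0.0418, 0.0456 and 0.0346). That fit rested mostly on Hu 2 among the Hu libraries, with a weight of 3.64 against 0.41 for Hu 1 and 0.25 for Hu 3. MAP2K1 was listed at 0 in Hu 2, and the deposited FPKM of EGR1 and FOS were highest in Hu 3. Over all genes that fit called 6.35%, with 75 higher (0.752%) and 558 lower (5.6%) in Hu, a share near that of the lists. The adjusted p of each of the 4 reached 1.000 under other alternatives.

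Intracellular FGFs, which are not secreted and bind sodium channels, had 4 of 4 genes listed and 2 tested, both with a negative difference (-0.43 and -0.98), which turned to 0.08 for FGF12 in 1 alternative. FGF12 stood at 5.05, 4.19 and 6.89 FPKM in Hu ovaries, against 6.22, 16.3 and 3.87 FPKM in Mongolian ovaries. FGF11 was listed at 0, 0 and 0.991 FPKM in Hu ovaries, against 2.52, 0.677 and 1.58 FPKM in Mongolian ovaries. FGF13 and FGF14 were listed at 0 in 4 libraries each.

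Coreceptors and binding partners had 11 of 18 genes listed and 10 tested, 4 with a positive difference and 6 with a negative one (median -0.15). S100A13, a partner in the release of FGF1 from cells, was the most abundant, at 8.14, 51.3 and 126 FPKM in Hu ovaries, against 61.3, 67.7 and 31.9 FPKM in Mongolian. Hu 1, the library with the fewest genes listed, was its lowest. NCAM1, an adhesion molecule that binds FGFR1, stood at 2.29, 3.42 and 7.39 FPKM in Hu ovaries, against 4.45, 6.92 and 9.22 FPKM in Mongolian ovaries. FIBP, an intracellular protein that binds FGF1, was listed at 0, 5.81 and 11.5 FPKM in Hu ovaries, against 8.10, 2.97 and 2.99 FPKM in Mongolian ovaries. In the deposited FPKM the breeds overlapped for every tested gene of this list, though NCAM1 was lower in Hu without overlap after rescaling to a common sum. After quantile normalization 6 differences of the list were positive and 4 negative (median 0.15), where 51.3% of all genes were positive.

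Heparan sulfate proteoglycans and their enzymes had 19 of 27 genes listed and 15 tested, 3 with a positive and 12 with a negative difference (median -0.26). The basement membrane proteoglycan HSPG2, perlecan, averaged 15.1 ± 4.28 FPKM in Hu and 20.5 ± 9.62 FPKM in Mongolian, and COL18A1, whose fragment is endostatin, averaged 12.00 ± 3.06 FPKM in Hu and 10.6 ± 2.51 FPKM in Mongolian (SD, n = 3 each). The breeds did not overlap for 2 of the 15, both lower in Hu, as were 6.05% of all genes tested. NDST2, an enzyme that adds sulfate to heparan chains, was listed at 0, 0.550 and 0.660 FPKM in Hu ovaries, against 3.37, 1.12 and 3.86 FPKM in Mongolian ovaries (log2 difference -1.38, 95% confidence interval from -2.80 to 0.05). AGRN, the proteoglycan agrin, stood at 0.949, 1.36 and 1.93 FPKM in Hu ovaries, against 2.89, 2.28 and 3.01 FPKM in Mongolian ovaries. Both overlapped after quantile normalization, where the list had 10 positive and 5 negative differences (median 0.14) and 51.3% of all genes were positive.

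Genes that carry the signal inward had 32 of 35 listed and 30 tested, 6 with a positive and 24 with a negative difference (median -0.23). FRS2, the docking protein of the FGF receptors, stood at 3.57, 5.84 and 17.4 FPKM in Hu ovaries, against 4.72, 3.32 and 3.94 FPKM in Mongolian ovaries. The docking protein GAB1 stood at 4.39, 6.84 and 12.01 FPKM in Hu ovaries, against 14.1, 11.6 and 12.5 FPKM in Mongolian ovaries, with Hu 3 above Mongolian 2. Under the 3 other scalings all of its Hu values were the lower. GAB2, its relative, did not overlap, at 12.2, 8.93 and 12.7 FPKM in Hu and 19.6, 13.02 and 24.5 FPKM in Mongolian, but it overlapped after each of the 3 other scalings. SHC1, an adaptor upstream of RAS, averaged 12.8 ± 7.66 FPKM in Hu and 20.3 ± 4.74 FPKM in Mongolian. PTPN11, a phosphatase needed for RAS activation, was highest in Hu 3, at 30.9 FPKM. After quantile normalization the list had 13 positive and 17 negative differences (median -0.02), where 51.3% of all genes were positive. Without Hu 1 the split became 19 positive and 11 negative, and without Hu 3 it was 4 and 26. The positive share of all genes moved in the same directions, to 50.8% without Hu 1 and 18.1% without Hu 3.

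Feedback inhibitors and target genes had 16 of 26 listed and 10 tested, 3 with a positive and 7 with a negative difference (median -0.20). After quantile normalization the list had 5 of each, where 51.3% of all genes were positive. DUSP4, a phosphatase that switches off MAP kinases, was listed at 3.60, 4.54 and 1.14 FPKM in Hu and at 0 in all 3 Mongolian libraries. It reached the minimum for testing through the Hu libraries alone, so its separation and its p, array weights included, are no support for a difference. LRIG1, which restrains receptor tyrosine kinases, was lower in Hu without overlap, at 3.18, 2.35 and 1.59 FPKM against 6.53, 4.79 and 3.75 FPKM in Mongolian, and it overlapped after each of the 3 other scalings. The early response gene EGR1 stood at 17.3, 15.5 and 92.2 FPKM in Hu ovaries, against 59.9, 34.3 and 73.4 FPKM in Mongolian ovaries. FOS, another early response gene, stood at 0.802, 2.11 and 43.2 FPKM in Hu ovaries, against 15.1, 7.88 and 16.4 FPKM in Mongolian ovaries. In the deposited FPKM both genes were highest in Hu 3 and lowest in the other Hu libraries. DUSP6, ETV4, ETV5 and IL17RD, which are often read as markers of FGF signalling, were under the minimum for testing. Among them DUSP6 reached the highest value, 5.31 FPKM in Hu 3.

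**Figure D5:**
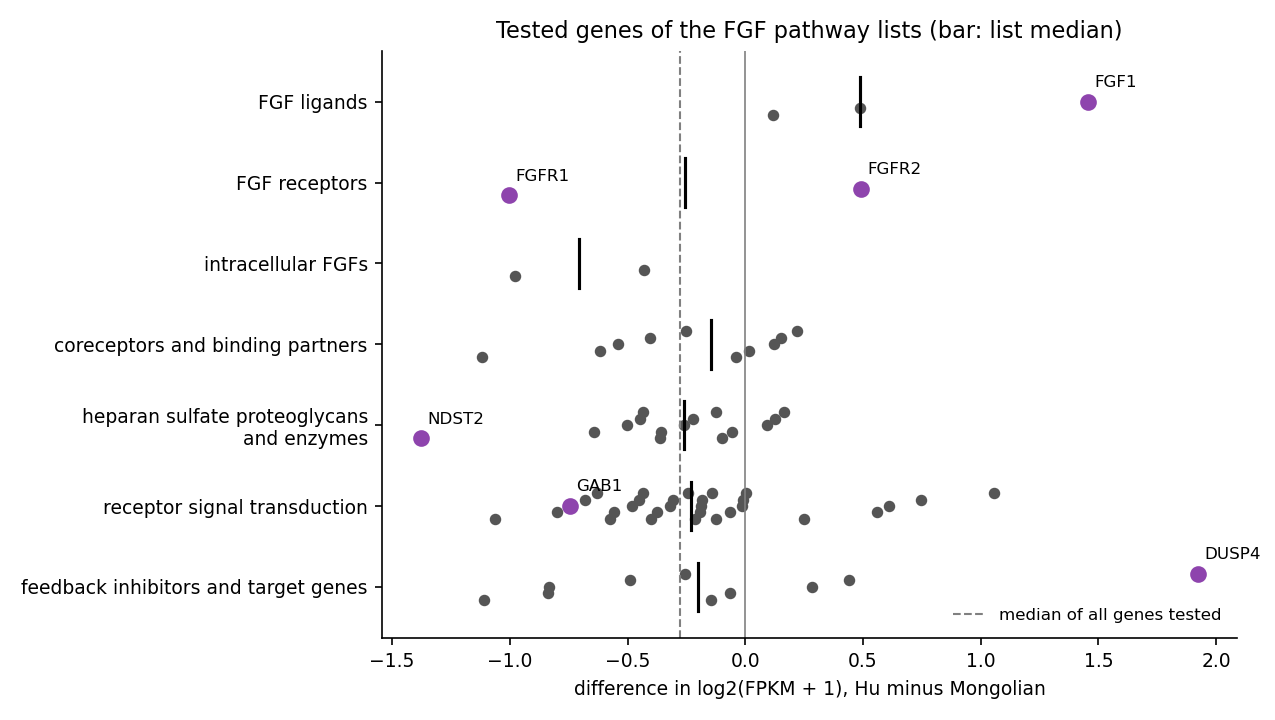
Differences in log2(FPKM + 1), Hu minus Mongolian, for every tested gene of the FGF pathway lists, 1 point per gene, with the list median as a black bar and the median of all genes tested (-0.28) as a dashed line. FGF1 (1.46) and DUSP4 (1.92, set against zeros) lie farthest to the right, and NDST2 (-1.38) farthest to the left.

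Genes with the most similar profile were found over the 6 libraries as the smallest root mean square distance between log2(FPKM + 1) values centred on each gene's mean, among 7571 other tested genes with a symbol. For FGFR1 they were DBN1, NOSIP, GATAD2B and GAB1, at distances of 0.13, 0.15, 0.16 and 0.16 log2 units, where FGFR1 itself varied by 0.67 on the same measure. DBN1, an actin-binding protein, stood at 5.04, 7.26 and 14.6 FPKM in Hu ovaries, against 16.1, 13.5 and 15.2 FPKM in Mongolian ovaries. For FGF1 the nearest genes, DDX56, EID1, TAGLN3 and TMEM219, lay at 0.36 to 0.41 log2 units, where FGF1 itself varied by 1.13. Of these, DDX56, TAGLN3 and TMEM219 were listed at 0 in Mongolian 3, the library where FGF1 was lowest. EID1 stood at 28.4, 11.1 and 57.4 FPKM in Hu ovaries, against 21.5, 13.1 and 5.60 FPKM in Mongolian ovaries. FGF2 was nearest to ND2, a gene of the mitochondrial genome, at 0.063 log2 units, followed by PAPSS1, RPS23 and COX2. ND2 stood at 53.3, 88.96 and 285 FPKM in Hu ovaries, against 93.4, 190.3 and 59.01 FPKM in Mongolian ovaries. FGFR2 was nearest to NXF1, LARP7, GLIPR2 and SQSTM1, and FGF10 to PURG, ERGIC3, SUSD6 and FBXL7.

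Markers of the cells that may hold these RNAs were summed per library. The 7 listed stroma markers summed to 953 to 1145 FPKM in Hu and 883 to 986 FPKM in Mongolian, with 0 of 7 listed at 0 in any library, and the breeds overlapped. The receptor PDGFRA, another mesenchymal tyrosine kinase, averaged 16.6 ± 3.76 FPKM in Hu and 16.4 ± 6.10 FPKM in Mongolian (SD, n = 3 each). The 8 smooth muscle and pericyte markers summed to 554 to 1402 FPKM in Hu and 692 to 873 FPKM in Mongolian, with 4 positive and 4 negative log2 differences. ACTA2 and TAGLN, the most abundant, differed by 0.27 and 0.30. Of the 8, MYH11, smooth muscle myosin, was the one without overlap and was lower in Hu, at 105, 110.2 and 176 FPKM in Hu and 224, 195 and 303 FPKM in Mongolian. Over all genes tested, 6.05% were lower in Hu without overlap and 1.88% higher. Among the tested markers of the other cell types, LUM, FDX1 and FLT4 were higher in Hu without overlap, and HSD17B1 and PTPRC were lower. The 11 listed endothelial markers summed to 18.0 to 32.1 FPKM in Hu and 8.10 to 15.4 FPKM in Mongolian, without overlap, with 5, 5 and 0 of the 11 listed at 0 in Hu and 3, 1 and 4 in Mongolian. Of the 9 tested, 6 had a positive and 3 a negative difference. Without LYVE1, a marker of lymphatic vessels at 8.89 FPKM in Hu 2, the sums were 17.2, 9.06 and 30.2 FPKM in Hu ovaries, against 8.10, 12.8 and 9.56 FPKM in Mongolian ovaries, and overlapped, a check chosen after the values were seen. The 7 granulosa markers summed to 269.6, 55.0 and 148 FPKM in Hu and 83.9, 65.8 and 127 FPKM in Mongolian, and overlapped. Theca and steroid cell markers summed to 23.3 to 115 FPKM in Hu and 24.4 to 108 FPKM in Mongolian, and leukocyte markers to 6.54 to 20.7 FPKM in Hu and 8.40 to 38.9 FPKM in Mongolian. Hu 1 and Hu 2, the libraries with the lowest FGFR1, also listed the fewest genes. The part of cell makeup or of the number of genes listed in the levels of FGF1 and FGFR1 was not tested.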

How the data were processed

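Breed and replicate number come from the titles of the samples, and table columns were matched to samples by the codes in the sample descriptions. Per the labels' protocols, libraries of polyadenylated RNA were made from 1 μg of total RNA with a SMARTer kit. The authors deposited FPKM values per gene; for the aligner, counting tool, genome build and filters the status is: not given in the sources used here. Of the rows, 13359 carry Ensembl identifiers and 1121 were assembled in the study. The lncRNA table was not used here. No coordinates and no sequences are given.

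A search for whole-read steps found none: under 2 FPKM, at most 0.655% of genes shared a ratio between libraries within a bin 0.2% wide, so no count test was run. The 9971 genes that reached 0.5 FPKM in 3 or more libraries were tested on log2(FPKM + 1) with limma 3.58.1 in R 4.3.3 (lmFit, eBayes with trend), two-sided, breed as the only factor, Benjamini-Hochberg adjustment over all genes and a threshold of 0.05. The test was checked on simulated data, where recovery of added changes was required only with a spread much smaller than in these libraries. That check does not show which differences the test could find at the real spread. Within-library comparisons used exact permutation tests (scipy 1.17.1). Differences are Hu minus Mongolian. For each pathway list, values went first to the 4 tested genes of highest mean and the 4 of smallest p, and any listed gene could be named; similar profiles were limited to 4 genes each. The values of some listed genes are not reported here. The genes, lists and tests were chosen with earlier results of these data known. Alternatives were other pseudocounts (0.1 and 0.01), filters, scalings, eBayes settings, array weights, the replicate number as a block, and libraries left out.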

Additional observations from a re-analysis of the deposited data

How the results depend on the processing

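The count of genes called was 0 in the reported fit and between 0 and 4 when 1 library was left out; 6 genes were called without Hu 1 and Hu 3 together, where the lone Hu library is assumed to vary like the others, and 633 with array weights, whose weight was 3.64 for Hu 2, 0.41 for Hu 1 and 0.25 for Hu 3. The cause was not tested. FGF1 and FGFR1 kept their direction and stayed uncalled in all 18 alternatives, and FGFR2 in 16. FGF1 ranged from 0.76 to 1.98 log2 units and FGFR1 from -1.42 to -0.67 with 1 library left out; FGF1 was 0.37 with array weights. FGFR2 was 1.55 and 2.71 with pseudocounts of 0.1 and 0.01. FGF2 turned to -0.14 without Hu 1 and Hu 3 and to -0.23 with array weights, and ran from -0.54 to 0.65 with 1 library left out; FGF10 ran from -0.12, without Hu 2, to 1.04, and was 1.70 without Hu 1 and Hu 3. The filter at 5 FPKM left no value for FGF2, FGFR2 and FGF10, and the filter on genes above 0 in all 6 libraries none for FGFR2 and FGF10.

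With the replicate number as a block, 0 genes were called and FGF1 differed by 1.46 (limma adjusted p = 0.999). Same-numbered libraries did not deviate together (correlations across genes of -0.013, -0.030 and -0.180), so the numbers are not taken as pairs. FGFR1 as a percent of both receptors differed by -15.2 to -7.98 points with 1 library left out, and its log2 ratio to FGFR2 by -1.49; no p below 0.1 is possible in these. The order of levels gave 0 calls among the pairs with a pseudocount of 0.1 and with each library left out, where 5 libraries cannot reach the threshold. The ratio of FGF1 to FGFR1 was 2.07 to 3.46 log2 units higher in Hu with 1 library left out, an alternative chosen after the data were seen. Depth is unknown, which limits FGF7, FGF10, FGFR2 and FGFR4 most.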
